A study of Mus musculus with 4 samples.

Results

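Solute carriers are the largest group of membrane transporter genes, and the ones described here are the 195 that were expressed in differentiating C2C12 myoblasts. They were chosen as the protein-coding genes whose symbol in the authors' deposited table begins with Slc and a digit and whose mean over the 4 libraries was at least 1 CPM (a gene's fragments relative to all fragments assigned to genes in that library). That table lists 246 protein-coding solute carrier symbols, of which 51 fell below the threshold; a further 130 solute carrier symbols of the count files, none above 0.106 CPM, are not among its rows. The members fell into 43 families and were grouped into 13 classes by substrate. Because the level over all libraries chose them, a gene near the threshold could enter through 1 group: Slc10a6 at 1.03, Slc5a5 at 1.06 and Slc22a18 at 1.13 CPM lay just inside it, and Slc30a3 at 0.941, Slc25a43 at 0.902 and Slc18a1 at 0.804 CPM just outside. For 4 members the mean was under 1 CPM in the empty-vector group and for 5 it was under 1 CPM in the C/EBPβ group, and those 9 had to differ in order to be included. They raise the called shares of their classes given below, and class shares without them were not computed.

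The cells were C2C12, a myoblast line from mice of strain C3H that fuses into myotubes when serum is lowered. One group of 2 libraries came from cells carrying a retrovirus for C/EBPβ, a leucine zipper transcription factor, and the other group of 2 libraries from cells carrying the empty retroviral vector pLXSN. Both groups were kept as drug-resistant pools after 7 days in G418 at 1200 µg/ml, so the vector and the selection were common to them, then proliferated for 2 days and were differentiated for 2 days in 2% horse serum. The species of the C/EBPβ cDNA and the origin of the replicates (separate cultures or separate preparations) are not given in the sources used here, so the p-values rest on variation among the sequenced libraries, and that variation could be technical alone.

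Solute carriers move ions, nutrients, metabolites and vitamins across membranes, either down the solute's own gradient or by coupling it to the gradient of another ion, and unlike pumps they do not split ATP. Most work at the cell surface, while the Slc25 family serves the inner membrane of mitochondria, and others serve lysosomes and the Golgi apparatus. In muscle they bring in glucose, amino acids, creatine, taurine and carnitine, carry lactate out, and remove calcium, and several amino acid carriers need a partner protein to reach the surface.

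The C/EBPβ libraries held 50493417 and 36461091 assigned fragments, against 45448661 and 51537847 in the empty-vector libraries, and 15886 genes passed edgeR's filter on low counts, all 195 members among them. Cebpb was measured at 502 and 442 CPM in the C/EBPβ libraries, against 42.7 and 41.3 CPM in the empty-vector libraries (log2 fold change 3.49 ± 0.11, edgeR adjusted p = 1.38e-06), which fits the labels. Of 7 myoblast and myotube markers, 6 were lower and Myf5 was higher, with summed levels of 3458 and 5154 CPM in the C/EBPβ libraries, against 12667 and 13728 CPM in the empty-vector libraries. Of 5 fibroblast markers, Dpt, Pdgfra and Col1a1 were higher and Dcn and Ly6a did not pass, with sums of 1153 and 1010.5 CPM in the C/EBPβ libraries, against 805 and 740.3 CPM in the empty-vector libraries. Pecam1 of the endothelial list, Alb of the hepatocyte list, and Ptprc and Adgre1 of the macrophage list were at or near 0. The macrophage list summed to 32.7 and 30.3 CPM in the C/EBPβ libraries, against 3.43 and 3.12 CPM in the empty-vector libraries. Within it Lyz2 was higher, with 28.4 and 26.1 CPM in the C/EBPβ libraries, against 0.135 and 0.0791 CPM in the empty-vector libraries. Csf1r was also higher and Itgam lower, and Cd68 did not pass. The adipocyte markers summed to 3.91 and 2.32 CPM in the C/EBPβ libraries, against 0.0673 and 0.0791 CPM in the empty-vector libraries, with Adipoq at 0.345 CPM or less. Of these 6 markers only Fabp4 and Plin1 were tested, and both were higher. Fabp4 had 2.51 and 1.59 CPM in the C/EBPβ libraries, against 0.0449 and 0.0198 CPM in the empty-vector libraries. Of the 4 epithelial markers only Cdh1 was tested and was lower, as was Tubb3 of the 4 neural markers. The part of these shifts in the results on solute carriers was not tested, and in bulk RNA fewer cells of a type cannot be told apart from less RNA per cell.

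Promoter windows were available from RefSeq (build GRCm38.p6, 250 bases before to 50 after a start site) for 147 of the 195 members. They were searched on both strands for TTGCNNAA, the core of a C/EBP site, and for TGATGCAA, the letters of the composite element at which C/EBP and ATF proteins are known to pair; no run of 8 letters can match both. TTGCNNAA was found in 10.8% of all 32851 windows and in 15 of the members' 197 (7.61%), and TGATGCAA in 0.895% of all windows and in 5 of the members' (2.54%). Of those 5 windows 2 belong to Slc7a7 and overlap at the same match, so the 5 stand for 4 genes: Slc7a11, Slc50a1, Slc7a7 and Slc1a4, the last of which did not pass the test described below. A match describes the letters and says nothing of binding. The 4 windows shown belong to Slc7a11 (chr3:50443564-50443863, minus strand), which holds both motifs, Slc24a3 (chr2:145242361-145242660, plus strand), Slc50a1 (chr3:89270521-89270820, minus strand) and Slc7a7 (chr14:54417653-54417952, minus strand), all of which passed the test in the comparison described below. Each is written 5′ to 3′ along the gene, with the motif matches in capitals.
Slc7a11: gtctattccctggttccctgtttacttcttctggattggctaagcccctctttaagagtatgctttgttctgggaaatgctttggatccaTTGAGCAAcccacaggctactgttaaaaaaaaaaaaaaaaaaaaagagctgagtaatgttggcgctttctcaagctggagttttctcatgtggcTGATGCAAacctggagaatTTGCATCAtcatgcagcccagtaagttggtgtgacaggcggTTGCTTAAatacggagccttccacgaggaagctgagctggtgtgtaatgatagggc
Slc24a3: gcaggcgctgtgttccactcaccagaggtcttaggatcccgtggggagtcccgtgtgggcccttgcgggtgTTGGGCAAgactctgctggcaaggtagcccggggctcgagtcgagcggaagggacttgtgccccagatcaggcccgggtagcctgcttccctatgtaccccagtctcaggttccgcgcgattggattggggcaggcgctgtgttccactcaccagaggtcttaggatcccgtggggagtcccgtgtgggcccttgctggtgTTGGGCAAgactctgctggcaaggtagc
Slc50a1: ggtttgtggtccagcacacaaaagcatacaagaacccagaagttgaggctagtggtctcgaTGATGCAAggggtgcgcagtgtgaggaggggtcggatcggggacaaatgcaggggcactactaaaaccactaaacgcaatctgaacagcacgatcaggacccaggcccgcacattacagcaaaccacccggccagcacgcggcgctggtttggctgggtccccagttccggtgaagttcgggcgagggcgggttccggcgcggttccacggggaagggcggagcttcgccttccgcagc
Slc7a7: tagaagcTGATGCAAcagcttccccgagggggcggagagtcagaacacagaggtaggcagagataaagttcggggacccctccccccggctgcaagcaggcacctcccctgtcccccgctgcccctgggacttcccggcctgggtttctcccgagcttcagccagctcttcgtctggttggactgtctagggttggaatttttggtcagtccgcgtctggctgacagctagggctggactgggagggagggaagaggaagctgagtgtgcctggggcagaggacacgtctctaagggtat
The Slc7a11 window holds 2 matches of each motif, the Slc24a3 window 2 of TTGCNNAA, and the other 2 windows shown 1 of TGATGCAA each. The 2 matches of Slc24a3 lie in nearly identical copies of a stretch repeated within the window, so they are not separate sequences. Slc7a7 has another window with 1 TTGCNNAA. By gene, TTGCNNAA stood in a window of 7 of 45 members that were higher with C/EBPβ, of 1 of 24 that were lower and of 6 of 78 that did not pass the test. By window the shares were 13.1% of 61, 3.57% of 28 and 5.56% of 108, beside 10.8% of all windows. A share by gene over all genes was not computed, and whether the motif goes with the direction was not tested.

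The comparison asked which solute carriers differ in level between differentiating myoblasts with added C/EBPβ and those with the empty vector. Of the 195 members, 55 were higher and 39 lower at an adjusted p under 0.05 (edgeR's quasi-likelihood test, Benjamini-Hochberg adjustment over 15886 genes), and 101 did not pass. That is 48.2% of the members, beside 43.3% of all genes tested (22.4% higher and 20.9% lower) and 47.7% of protein-coding genes averaging 1 CPM or more, so the share was near the background. In 143 members (73.3%) the 2 groups of libraries did not overlap, against 75.1% of all genes tested and 79.3% of protein-coding genes averaging 1 CPM or more. The median log2 fold change (C/EBPβ over empty vector) was 0.05 for the members and 0.01 for all genes tested, and 135 members lay within 1.5-fold. At least 2-fold differences that passed the test were seen in 16 members that were higher and 15 that were lower, while 9.15% and 7.5% of all genes tested did so. Summed over the members the level was 12279 and 12852 CPM in the C/EBPβ libraries, against 13361 and 12481 CPM in the empty-vector libraries: the groups overlap. Leaving out the 9 members under 1 CPM in a group gave 51 higher and 34 lower of 186. Without the second empty-vector library 35 members were called higher and 30 lower.

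**Figure D1:**
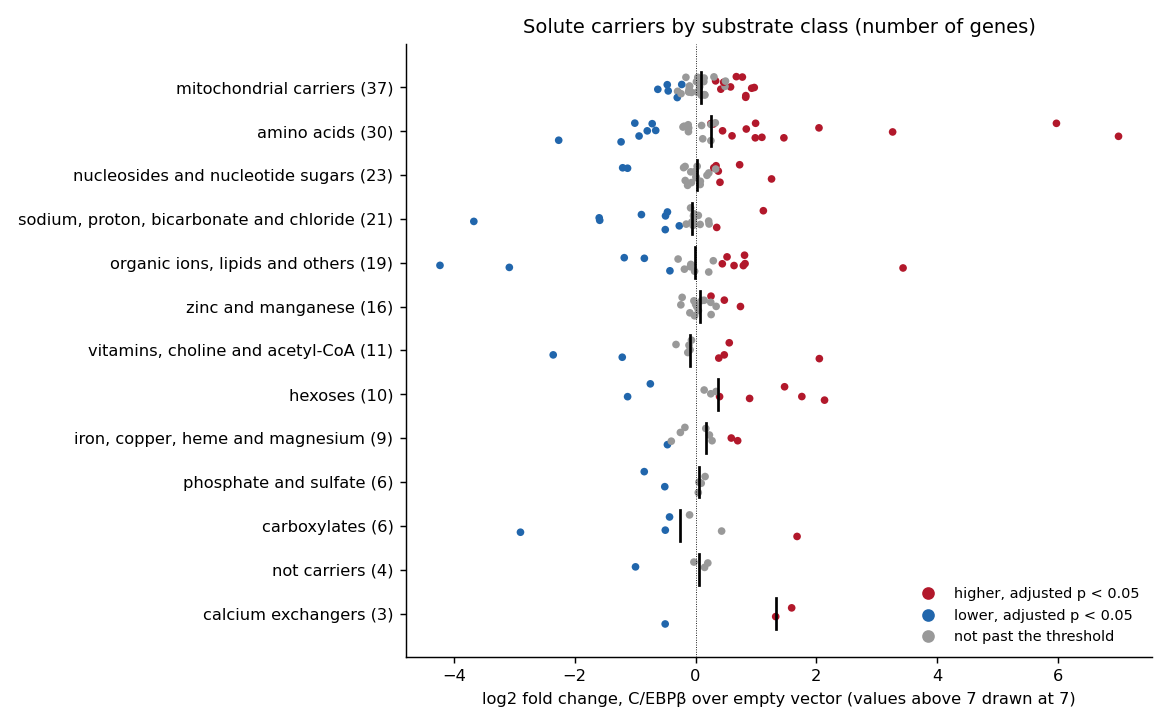
Log2 fold change (C/EBPβ over empty vector, horizontal axis) of each of the 195 solute carriers, in rows by substrate class with the number of genes in brackets. Each point is a gene, coloured by its edgeR call, and the black bar is the class median. The largest class, the mitochondrial carriers, stays within 2-fold, while the amino acid carriers spread widely to both sides.

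Among the members that passed, the second C/EBPβ library usually lay nearer to the empty-vector libraries than the first did. This held for 41 of the 55 that were higher (74.5%) and for 36 of the 39 that were lower (92.3%), against 74.5% and 77.2% of all genes called higher and lower. The same library had the smaller total and the higher sum of myoblast and myotube markers of the 2 C/EBPβ libraries, and the part of either in the results was not tested.

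Levels differed widely between members. On the length-corrected TPM scale the highest mean over the 4 libraries was that of Slc29a1, the equilibrative nucleoside transporter ENT1, at 767 TPM in the C/EBPβ cells and 756 TPM in the empty-vector cells. It was followed by Slc25a4, the ADP/ATP translocase of muscle and heart mitochondria, at 682 TPM in the C/EBPβ cells and 623 TPM in the empty-vector cells, and by Slc38a2, a sodium-coupled carrier of small neutral amino acids, at 601 TPM in the C/EBPβ cells and 522 TPM in the empty-vector cells. Next came Slc6a6 (taurine), Slc25a3 (mitochondrial phosphate), Slc25a5 (the second ADP/ATP translocase), Slc7a5 and its heavy chain Slc3a2 (large neutral amino acids), Slc44a2 (choline-like transporter) and Slc25a17 (a peroxisomal carrier), which had means of 406 to 191 TPM. The median member had 20.7 TPM. Of these 10, Slc6a6, Slc7a5 and Slc25a5 were lower with C/EBPβ, Slc25a17 was higher, and the other 6 did not pass the test. ENT1 had 791 and 981 CPM in the C/EBPβ libraries, against 994 and 877 CPM in the empty-vector libraries, and Slc25a4 had 466 and 457 CPM in the C/EBPβ libraries, against 441 and 465 CPM in the empty-vector libraries; in both genes the groups overlapped.

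**Figure D2:**
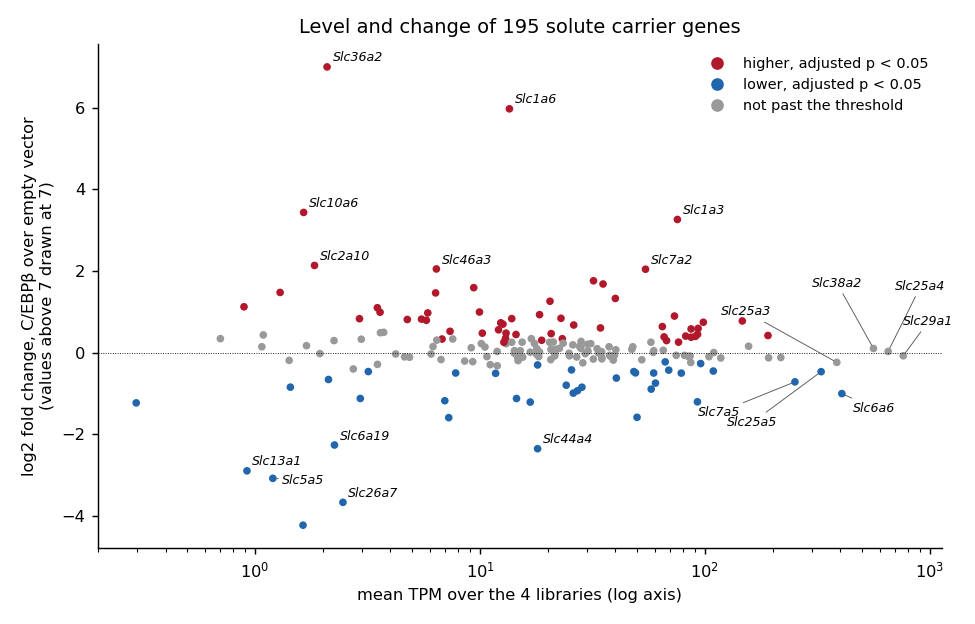
Mean level over the 4 libraries (TPM, log axis) against the log2 fold change of each solute carrier. Points are genes coloured by edgeR call, and the value of Slc36a2, which had no fragment in the empty-vector libraries, is drawn at 7. The changes beyond 4-fold lie below 100 TPM, and the 2 most abundant genes lie at about 0.

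The amino acid carriers held the largest rises. Of 30 members, 13 were higher and 7 lower (66.7% called, beside 43.3% of all genes tested), with a median log2 fold change of 0.25. Among these, Slc36a2, Slc1a6 and Slc7a11 were under 1 CPM in a group and had to differ in order to be included. The class share without them was not computed. Slc1a6 and Slc1a3, which take up glutamate and aspartate with sodium, were higher, as were Slc7a2, the inducible carrier of arginine and lysine, and Slc36a2, a proton-coupled carrier of glycine, alanine and proline that is also used as a surface marker of brown fat cells. Slc6a19 (neutral amino acids in gut and kidney), Slc6a6 (taurine), Slc7a1 (the constitutive arginine and lysine carrier), Slc38a1 (glutamine) and Slc7a5 (leucine and other large neutral amino acids) were lower.

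Slc36a2 (chr11:55158470-55185077 in GRCm38) had 5.28 and 2.52 CPM in the C/EBPβ libraries and no fragment in either empty-vector library. Pooled by group, its 368 fragments against 0 give a 131-fold difference when a floor of 3 fragments is set for the empty-vector group (edgeR adjusted p = 0.00349). That pooled value does not cover the spread between the C/EBPβ libraries. Slc1a6 (chr10:78780496-78814825) was measured at 18.6 and 13.3 CPM in the C/EBPβ libraries, against 0.337 and 0.178 CPM in the empty-vector libraries, a 62.1-fold difference (log2 fold change 5.97 ± 0.30, edgeR adjusted p = 1.83e-05). Both were near 0 in the empty-vector libraries. The neighbour of Slc36a2, Slc36a1, a proton-coupled carrier of the same family found on lysosomes, starts 19.3 kb away on the opposite strand and had 52.7 and 44.7 CPM in the C/EBPβ libraries, against 29.8 and 24.7 CPM in the empty-vector libraries (log2 fold change 0.84 ± 0.12, edgeR adjusted p = 0.00154). The third expressed gene of that family, Slc36a4, passed narrowly at 0.25 ± 0.09 (adjusted p = 0.0474) and its call was lost whichever of the 4 libraries was left out (adjusted p of 0.115 to 0.203), as well as with median-ratio scaling (0.0552), with no filter on low counts (0.0785), with DESeq2 (0.116) and with edgeR's earlier dispersion estimation (0.0510).

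Slc1a3 (chr15:8634124-8710764), the glutamate transporter GLAST known from astrocytes, reached 370.5 and 305 CPM in the C/EBPβ libraries, against 44.9 and 25.6 CPM in the empty-vector libraries (log2 fold change 3.26 ± 0.31, edgeR adjusted p = 0.00188). Both C/EBPβ libraries stood far above both empty-vector libraries. The other 2 expressed Slc1 genes, the neutral amino acid exchangers Slc1a4 and Slc1a5, had log2 fold changes of 0.25 ± 0.11 and -0.11 ± 0.10 and did not pass. Summed over the Slc1 family, the level was 472 and 416 CPM in the C/EBPβ libraries, against 127 and 104 CPM in the empty-vector libraries.

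The carriers of cationic amino acids moved in opposite directions. Slc7a2 had 241 and 226 CPM in the C/EBPβ libraries, against 68.1 and 45.1 CPM in the empty-vector libraries, a 4.12-fold difference (log2 fold change 2.04 ± 0.20, edgeR adjusted p = 0.000868). Slc7a1 had 53.5 and 76.2 CPM in the C/EBPβ libraries, against 125 and 123 CPM in the empty-vector libraries (log2 fold change -0.93 ± 0.16, edgeR adjusted p = 0.00559). In neither gene did the groups overlap. Per length, Slc7a2 stood at 88.8 TPM in the C/EBPβ cells and 20.1 TPM in the empty-vector cells, and Slc7a1 at 19.5 TPM in the C/EBPβ cells and 34.7 TPM in the empty-vector cells, so their order in level differed between the groups. Without the first or the second empty-vector library the call on Slc7a1 was lost (adjusted p of 0.0646 and 0.0768).

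The light chains that pair with the heavy chain Slc3a2, also called CD98, moved apart while the heavy chain itself did not pass. Slc3a2 had 204 and 236 CPM in the C/EBPβ libraries, against 224 and 253 CPM in the empty-vector libraries, which overlap (log2 fold change -0.12 ± 0.11, edgeR adjusted p = 0.397). Slc7a5, or LAT1, had 174 and 250.0 CPM in the C/EBPβ libraries, against 355 and 342 CPM in the empty-vector libraries (log2 fold change -0.72 ± 0.17, edgeR adjusted p = 0.0141). Slc7a6 and Slc7a7, which exchange cationic for neutral amino acids, were higher. Slc7a6 had 55.4 and 56.6 CPM in the C/EBPβ libraries, against 39.0 and 34.7 CPM in the empty-vector libraries (log2 fold change 0.60 ± 0.09, edgeR adjusted p = 0.00127). Slc7a7, one of whose promoter windows is printed above, had 4.96 and 4.27 CPM in the C/EBPβ libraries, against 2.04 and 2.27 CPM in the empty-vector libraries (log2 fold change 1.10 ± 0.18, edgeR adjusted p = 0.00213). Slc7a11, the cystine and glutamate exchanger that supplies cysteine for glutathione, was the least abundant member of all at 0.296 TPM and was lower. It had 0.459 and 1.09 CPM in the C/EBPβ libraries, against 1.48 and 1.96 CPM in the empty-vector libraries (log2 fold change -1.23 ± 0.38, edgeR adjusted p = 0.0337). The groups did not overlap, but the 2 C/EBPβ libraries lay apart: the log2 fold change was -1.92 without the second of them. The call was lost without the first C/EBPβ library (adjusted p = 0.138), without the first or second empty-vector library (0.0686 and 0.196) and with DESeq2 (0.0519). The call on Slc7a5 was lost without either empty-vector library (adjusted p of 0.0867 and 0.0874).

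Slc6a6, the taurine transporter, was the most abundant member that fell. It had 602 and 777 CPM in the C/EBPβ libraries, against 1469 and 1297 CPM in the empty-vector libraries, 2.01-fold lower with C/EBPβ (log2 fold change -1.005 ± 0.15, edgeR adjusted p = 0.00160). Slc6a19 had 0.766 and 1.70 CPM in the C/EBPβ libraries, against 5.52 and 5.79 CPM in the empty-vector libraries (log2 fold change -2.26 ± 0.31, edgeR adjusted p = 0.00133), and its log2 fold change was -2.90 without the second C/EBPβ library. Slc38a1 had 40.5 and 48.7 CPM in the C/EBPβ libraries, against 77.3 and 77.8 CPM in the empty-vector libraries (log2 fold change -0.80 ± 0.10, edgeR adjusted p = 0.000689). All 3 genes showed the groups apart, with the second C/EBPβ library nearer to the empty vector. Slc38a2, which lies 44.5 kb from Slc38a1 and had a mean of 562 TPM beside 24.2 TPM for Slc38a1, was measured at 756 and 845 CPM in the C/EBPβ libraries, against 721 and 772 CPM in the empty-vector libraries and did not pass (log2 fold change 0.10 ± 0.11, edgeR adjusted p = 0.508).

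Of the remaining amino acid carriers, Slc43a1, or LAT3, a facilitated carrier of branched-chain amino acids, had 17.1 and 14.1 CPM in the C/EBPβ libraries, against 7.31 and 4.05 CPM in the empty-vector libraries (log2 fold change 1.46 ± 0.28, edgeR adjusted p = 0.00870). Slc6a17 of synaptic vesicles and Slc6a2 had log2 fold changes of 0.99 ± 0.16 and 0.99 ± 0.25 (adjusted p of 0.00224 and 0.0269, edgeR). Slc6a2 carries noradrenaline and is counted in this class by its family number alone. The call on Slc6a2 was lost with no filter on low counts (0.0575). Slc38a10 and Slc38a7 were higher by less than 1.4-fold, calls that were lost without the second empty-vector library (adjusted p of 0.0533 and 0.258), for Slc38a7 also without the first C/EBPβ library (0.0562), with no filter on low counts (0.0577) and with DESeq2 (0.0641). Slc16a10, a carrier of aromatic amino acids, was lower at -0.66 ± 0.17, a call lost without the first empty-vector library (0.101). The count of amino acid carriers called lower was 3 without the first and 4 without the second empty-vector library. Among 11 genes of the amino acid stress response, the programme driven by Atf4, 4 were lower (Chac1, Trib3, Phgdh and Psat1), beside 20.9% of all genes tested. The other 7 did not pass, Atf4 itself among them at 444 and 445 CPM in the C/EBPβ libraries, against 427 and 500.3 CPM in the empty-vector libraries. The median of that list was -0.59, beside 0.01 for all genes tested.

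**Figure D3:**
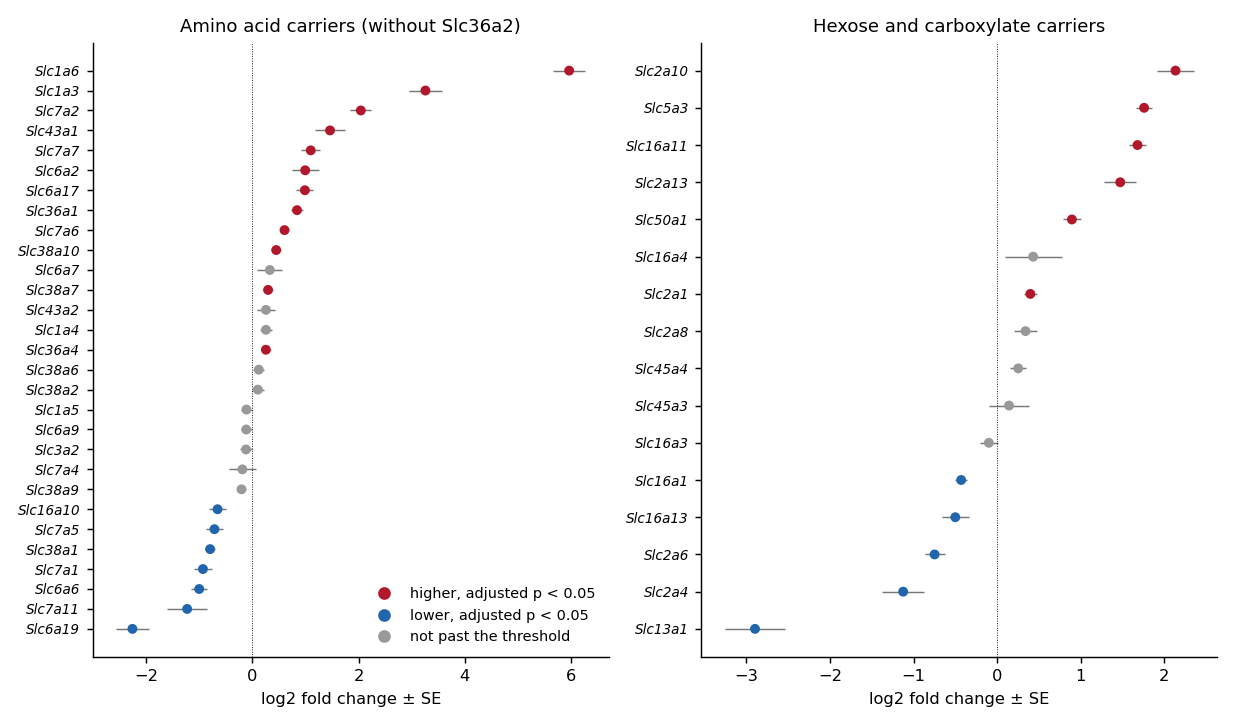
Log2 fold change (C/EBPβ over empty vector) with its SE for the amino acid carriers (left, without Slc36a2) and the hexose and carboxylate carriers (right), 2 libraries per group. Points are coloured by edgeR call. Slc1a6 and Slc1a3 lead the left panel and Slc2a10 and Slc5a3 the right one, while Slc6a19 and Slc13a1 lie at the bottom.

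Of 10 hexose and polyol carriers, 5 were higher and 2 lower (70% called, beside 43.3% of all genes tested), with a median log2 fold change of 0.37. Their summed level was 439.8 and 428 CPM in the C/EBPβ libraries, against 303 and 281 CPM in the empty-vector libraries, with no overlap. Slc5a3, described next, held much of that difference. The 6 Slc2 genes summed to 172 and 185 CPM in the C/EBPβ libraries, against 180 and 171 CPM in the empty-vector libraries, which overlap. Slc5a3, which brings in myo-inositol with sodium and is known as an osmolyte carrier, had 169 and 146 CPM in the C/EBPβ libraries, against 48.2 and 44.7 CPM in the empty-vector libraries, a 3.39-fold difference (log2 fold change 1.76 ± 0.10, edgeR adjusted p = 1.75e-05). Slc2a1, the widespread glucose carrier GLUT1, had 106 and 109 CPM in the C/EBPβ libraries, against 82.8 and 80.1 CPM in the empty-vector libraries (log2 fold change 0.40 ± 0.08, edgeR adjusted p = 0.00426). Slc2a13, a proton-coupled carrier of myo-inositol, was higher too, so both expressed inositol carriers rose. It had 4.84 and 4.46 CPM in the C/EBPβ libraries, against 1.88 and 1.48 CPM in the empty-vector libraries (log2 fold change 1.47 ± 0.19, edgeR adjusted p = 0.000790). Slc2a10, or GLUT10, was under 1 CPM without C/EBPβ, with 3.01 and 3.23 CPM in the C/EBPβ libraries, against 0.785 and 0.633 CPM in the empty-vector libraries (log2 fold change 2.14 ± 0.22, edgeR adjusted p = 0.000297). Slc50a1, the animal member of the SWEET sugar carriers, whose window above holds a TGATGCAA, had 43.6 and 38.6 CPM in the C/EBPβ libraries, against 23.5 and 20.7 CPM in the empty-vector libraries (log2 fold change 0.90 ± 0.10, edgeR adjusted p = 0.000498).

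The glucose carrier that insulin sends to the surface of muscle and fat cells, Slc2a4 or GLUT4, was lower. It had 1.44 and 2.52 CPM in the C/EBPβ libraries, against 4.22 and 4.17 CPM in the empty-vector libraries (log2 fold change -1.12 ± 0.25, edgeR adjusted p = 0.00952). The call was lost without the first or the second empty-vector library (adjusted p of 0.0521 and 0.0560). Slc2a6, a hexose carrier of lysosomes, was also lower, with 38.1 and 48.9 CPM in the C/EBPβ libraries, against 73.9 and 72.0 CPM in the empty-vector libraries (log2 fold change -0.75 ± 0.12, edgeR adjusted p = 0.00250). In TPM, GLUT1 stood at 106 TPM in the C/EBPβ cells and 75.3 TPM in the empty-vector cells, and GLUT4 at 1.97 TPM in the C/EBPβ cells and 3.91 TPM in the empty-vector cells, so GLUT1 was the more abundant in both groups. The hexose carriers called lower numbered 1 without either empty-vector library.

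Among the carriers of monocarboxylates and dicarboxylates, 1 of 6 was higher (2 without the first C/EBPβ library) and 3 were lower, with a median of -0.26. With all libraries the called share was 66.7%, beside 43.3% of all genes tested. Slc16a11 (chr11:70212752-70216417), a pyruvate carrier, had 40.0 and 40.3 CPM in the C/EBPβ libraries, against 13.5 and 11.6 CPM in the empty-vector libraries (log2 fold change 1.68 ± 0.10, edgeR adjusted p = 2.97e-05). Slc16a13, which ends 372 bases from it on the opposite strand, had 4.67 and 5.42 CPM in the C/EBPβ libraries, against 7.72 and 6.51 CPM in the empty-vector libraries (log2 fold change -0.50 ± 0.16, edgeR adjusted p = 0.0358). These adjacent genes, counted by strand, thus lay on opposite sides, although the call on Slc16a13 was lost without the first C/EBPβ library or without either empty-vector library (adjusted p of 0.141, 0.200 and 0.0599) and with library sizes alone (0.0551). Slc16a1, the lactate and pyruvate carrier MCT1, had 76.4 and 79.6 CPM in the C/EBPβ libraries, against 105 and 105 CPM in the empty-vector libraries (log2 fold change -0.43 ± 0.08, edgeR adjusted p = 0.00304), and the lactate exporter Slc16a3, or MCT4, did not pass at -0.10 ± 0.11. Slc13a1 is placed here by family but carries sulfate. It had 0.345 and 0.738 CPM in the C/EBPβ libraries, against 3.07 and 4.57 CPM in the empty-vector libraries (log2 fold change -2.90 ± 0.36, edgeR adjusted p = 0.000842), and its log2 fold change was -3.49 without the second C/EBPβ library.

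Emb and Bsg, which encode partner proteins of monocarboxylate carriers, behaved differently. Emb, or embigin, had 269 and 215 CPM in the C/EBPβ libraries, against 20.2 and 16.0 CPM in the empty-vector libraries (log2 fold change 3.74 ± 0.16, edgeR adjusted p = 1.92e-05), a 13.4-fold difference. Bsg, or basigin, had 666 and 698 CPM in the C/EBPβ libraries, against 639 and 703 CPM in the empty-vector libraries, which overlap (log2 fold change 0.02 ± 0.11, edgeR adjusted p = 0.879). The list of 12 chaperones and ion pumps that holds them had 3 higher and 6 lower, beside 22.4% and 20.9% of all genes tested. Emb had the largest rise. The largest fall was that of Fxyd6, a regulatory subunit of the sodium pump, with 0.0383 and 0.109 CPM in the C/EBPβ libraries, against 2.11 and 2.10 CPM in the empty-vector libraries (log2 fold change -4.90 ± 0.39, edgeR adjusted p = 8.19e-05).

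The mitochondrial family Slc25 was the largest class, and all of its members lay within 2-fold. Of 37 members, 10 were higher and 5 lower (40.5% called, beside 43.3% of all genes tested), and the median log2 fold change was 0.10. Their summed level was 2695 and 2671 CPM in the C/EBPβ libraries, against 2641 and 2617 CPM in the empty-vector libraries. Among those that were higher, Slc25a37, or mitoferrin, which brings iron into mitochondria, had 351 and 307 CPM in the C/EBPβ libraries, against 208 and 176 CPM in the empty-vector libraries (log2 fold change 0.78 ± 0.12, edgeR adjusted p = 0.00149). Slc25a1, which exports citrate for the synthesis of fatty acids and sterols, had 66.9 and 67.0 CPM in the C/EBPβ libraries, against 45.2 and 44.4 CPM in the empty-vector libraries (log2 fold change 0.58 ± 0.07, edgeR adjusted p = 0.000761). Slc25a36, a carrier of pyrimidine nucleotides, had 93.6 and 88.4 CPM in the C/EBPβ libraries, against 58.1 and 55.8 CPM in the empty-vector libraries (log2 fold change 0.68 ± 0.08, edgeR adjusted p = 0.000477). In each of them both C/EBPβ libraries lay above both empty-vector libraries. The other 7 that were higher were Slc25a35, Slc25a27, Slc25a45, Slc25a53, Slc25a38, Slc25a17 and Slc25a25, with log2 fold changes of 0.33 to 0.97. The call on Slc25a25 was lost without the first C/EBPβ library or either empty-vector library (adjusted p of 0.0937 to 0.188) and with DESeq2 (0.0679), that on Slc25a35 without the second empty-vector library (0.0654), and that on Slc25a38 without the same library (0.0784).

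Of the carriers that fell, Slc25a29, which carries basic amino acids, had 24.6 and 25.1 CPM in the C/EBPβ libraries, against 39.4 and 37.2 CPM in the empty-vector libraries (log2 fold change -0.62 ± 0.08, edgeR adjusted p = 0.000952). The ADP/ATP translocases differed in their calls: Slc25a5 had 129.8 and 142 CPM in the C/EBPβ libraries, against 182 and 194 CPM in the empty-vector libraries (log2 fold change -0.47 ± 0.09, edgeR adjusted p = 0.00432), whereas Slc25a4 did not pass at 0.03 ± 0.10. Slc25a5 shares 33.8% of its 50-base windows with transcripts of other genes, so its count is uncertain. Slc25a24, which exchanges ATP-Mg for phosphate, had 91.5 and 97.7 CPM in the C/EBPβ libraries, against 128 and 131 CPM in the empty-vector libraries (log2 fold change -0.45 ± 0.08, edgeR adjusted p = 0.00305). Slc25a20, the carnitine and acylcarnitine carrier needed to burn fatty acids, and Slc25a46, an outer-membrane protein that helps shape mitochondria, were at -0.30 ± 0.09 and -0.23 ± 0.08, and both calls were lost when either empty-vector library or the first C/EBPβ library was left out (adjusted p of 0.0633 to 0.117 for Slc25a20 and of 0.0852 to 0.209 for Slc25a46). Both were also lost with library sizes alone (0.0557 and 0.0973), and that on Slc25a46 with no filter on low counts (0.0598) and with DESeq2 (0.0594). Slc25a3, the phosphate carrier, had 561 and 613 CPM in the C/EBPβ libraries, against 692 and 694 CPM in the empty-vector libraries and did not pass (log2 fold change -0.24 ± 0.10, edgeR adjusted p = 0.0990), but did with DESeq2 (0.0395) and without the second C/EBPβ library (0.0316).

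The carriers of sodium, protons, bicarbonate and chloride included some of the larger falls. Of 21 members, 2 were higher and 8 lower, beside 22.4% and 20.9% of all genes tested, and 16 lay within 1.5-fold. The higher pair was Slc4a4 and Slc26a2, a sulfate carrier whose call was lost without the second empty-vector library (adjusted p = 0.0600). The median log2 fold change was -0.06, and the summed level was 943 and 997 CPM in the C/EBPβ libraries, against 1326 and 1206 CPM in the empty-vector libraries. Slc26a7 (chr4:14502430-14621805), an anion carrier of kidney, stomach and thyroid, had 0.593 and 0.602 CPM in the C/EBPβ libraries, against 6.82 and 8.40 CPM in the empty-vector libraries, 12.7-fold lower with C/EBPβ (log2 fold change -3.67 ± 0.22, edgeR adjusted p = 2.41e-05). Slc4a3, the chloride and bicarbonate exchanger AE3 of excitable tissues, had 58.3 and 71.9 CPM in the C/EBPβ libraries, against 208 and 182 CPM in the empty-vector libraries (log2 fold change -1.59 ± 0.12, edgeR adjusted p = 9.07e-05). Slc9a2, a sodium and proton exchanger, had 5.93 and 9.49 CPM in the C/EBPβ libraries, against 24.4 and 21.8 CPM in the empty-vector libraries (log2 fold change -1.59 ± 0.22, edgeR adjusted p = 0.00202). In none of the 3 did the groups overlap.

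Slc12a2, or NKCC1, which loads cells with sodium, potassium and chloride, had 69.7 and 88.9 CPM in the C/EBPβ libraries, against 146 and 149 CPM in the empty-vector libraries (log2 fold change -0.90 ± 0.12, edgeR adjusted p = 0.00101). The potassium and chloride carriers Slc12a7 and Slc12a4, which run outward, were lower as well, at -0.50 ± 0.09 and -0.27 ± 0.08. The call on Slc12a4 was lost without the first C/EBPβ library or either empty-vector library (adjusted p of 0.0539 to 0.164) and with library sizes alone (0.0650). Of the sodium and bicarbonate carriers, Slc4a4 was higher with 3.60 and 4.21 CPM in the C/EBPβ libraries, against 1.64 and 1.92 CPM in the empty-vector libraries (log2 fold change 1.12 ± 0.19, edgeR adjusted p = 0.00269), and Slc4a7 and Slc4a8 were lower at -0.50 ± 0.11 and -0.46 ± 0.11, the second a call lost without the first empty-vector library (0.0919). The widespread anion exchanger Slc4a2 did not pass, with overlapping groups. Atp1b2, a beta subunit of the pump that maintains the sodium gradient, was lower with 3.02 and 4.21 CPM in the C/EBPβ libraries, against 7.67 and 7.61 CPM in the empty-vector libraries (log2 fold change -1.09 ± 0.18, edgeR adjusted p = 0.00241). The beta subunit Atp1b1, with a mean over the 4 libraries of 112 TPM beside 4.57 TPM for Atp1b2, did not pass and its groups overlapped (log2 fold change 0.03 ± 0.08, edgeR adjusted p = 0.766).

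All 3 calcium exchangers passed, beside 43.3% of all genes tested, in a class of only 3 genes. Slc8a1, the sodium and calcium exchanger NCX1 of the heart cell membrane, had 11.7 and 12.5 CPM in the C/EBPβ libraries, against 4.82 and 3.22 CPM in the empty-vector libraries (log2 fold change 1.59 ± 0.19, edgeR adjusted p = 0.000631). Slc24a3, which exchanges sodium for calcium and potassium and whose window above holds TTGCNNAA in a repeated stretch, had 79.9 and 73.2 CPM in the C/EBPβ libraries, against 33.9 and 27.1 CPM in the empty-vector libraries (log2 fold change 1.33 ± 0.12, edgeR adjusted p = 0.000178). Slc8b1, which moves calcium out of mitochondria, had 66.8 and 68.1 CPM in the C/EBPβ libraries, against 103 and 88.0 CPM in the empty-vector libraries (log2 fold change -0.50 ± 0.09, edgeR adjusted p = 0.00409). The 2 exchangers of the cell surface were thus higher and that of mitochondria lower. Of the surface calcium pumps, Atp2b4 was higher at 0.68 ± 0.08 and Atp2b1 lower at -0.62 ± 0.11.

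**Figure D4:**
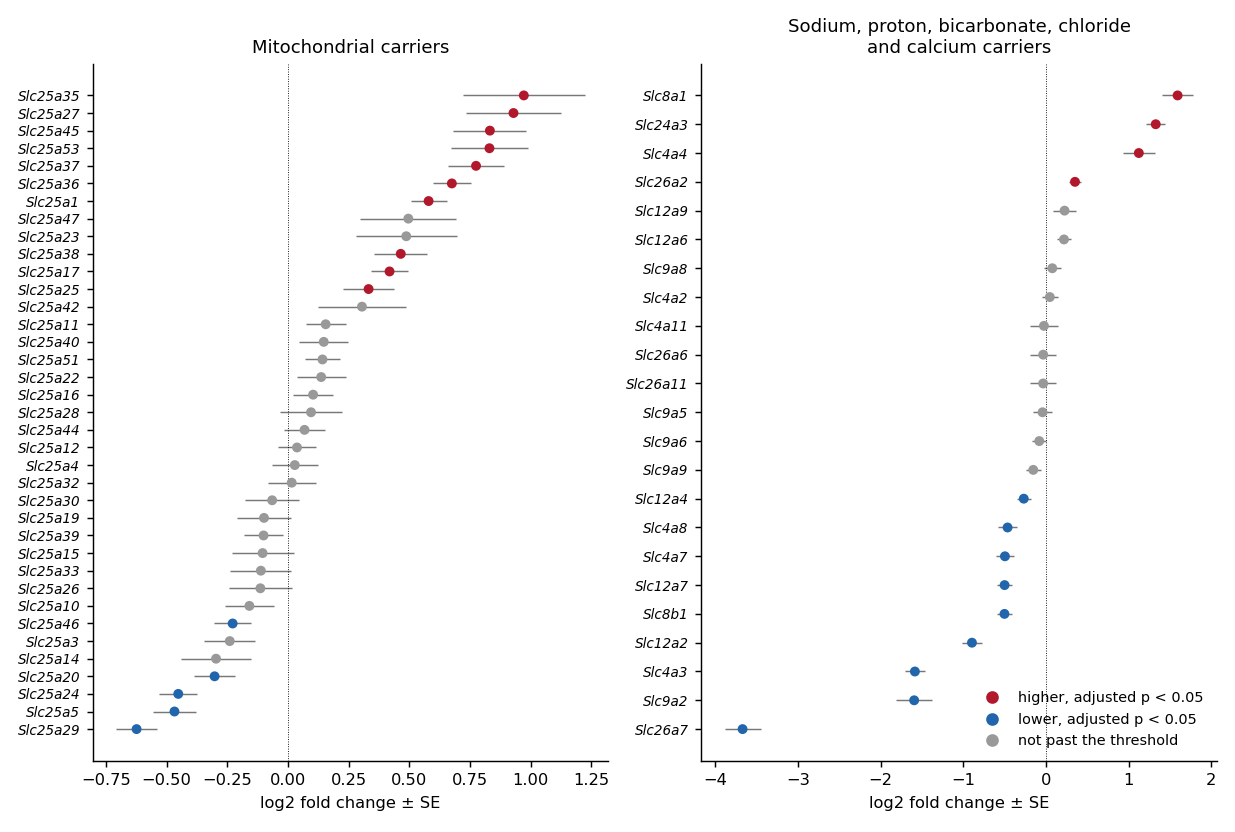
Log2 fold change (C/EBPβ over empty vector) with its SE for the mitochondrial carriers (left) and for 23 carriers of sodium, protons, bicarbonate, chloride and calcium (right), 2 libraries per group; the horizontal scales differ. Every mitochondrial carrier lies within 2-fold, while the right panel reaches from Slc26a7 to Slc8a1.

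Zinc and manganese carriers differed little. Of 16 members 3 were higher and the other 13 did not pass (18.75% called, beside 43.3% of all genes tested). The class median was 0.08 (log2), and all 16 lay within 2-fold. Slc39a13, a zinc carrier of the secretory pathway needed for connective tissue, had 186 and 168 CPM in the C/EBPβ libraries, against 115 and 96.2 CPM in the empty-vector libraries (log2 fold change 0.74 ± 0.11, edgeR adjusted p = 0.00134). Slc30a7 and Slc30a5, which load zinc into the Golgi apparatus, were at 0.48 ± 0.09 and 0.26 ± 0.08, and the call on Slc30a5 was lost without the second C/EBPβ library or either empty-vector library (adjusted p of 0.121 to 0.234), with no filter on low counts (0.0608) and with DESeq2 (0.0715). Of 9 carriers of iron, copper, heme and magnesium, 2 were higher and 1 lower; 4 were lower without the second C/EBPβ library, and 4 were higher with the replicate number as a block. In the main fit the called share of these 9 was 33.3%, beside 43.3% of all genes tested. Slc48a1, which frees heme from lysosomes, had 91.3 and 87.1 CPM in the C/EBPβ libraries, against 61.9 and 56.5 CPM in the empty-vector libraries (log2 fold change 0.59 ± 0.08, edgeR adjusted p = 0.00108). Slc11a2, the iron importer DMT1, had 75.5 and 79.1 CPM in the C/EBPβ libraries, against 112 and 102 CPM in the empty-vector libraries (log2 fold change -0.46 ± 0.08, edgeR adjusted p = 0.00338). Slc41a3, a magnesium carrier, was higher at 0.70 ± 0.13, and the iron exporter Slc40a1, or ferroportin, did not pass at -0.40 ± 0.16 (adjusted p = 0.0820). Without the second C/EBPβ library ferroportin passed (log2 fold change -0.58, adjusted p = 0.00701), as did the copper carriers Slc31a1 and Slc31a2 (adjusted p of 0.0476 and 0.0207).

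Nucleoside and nucleotide sugar carriers gave 6 members higher and 2 lower of 23 (34.8% called, beside 43.3% of all genes tested). The 3 equilibrative nucleoside transporters split: ENT1 did not pass, the lysosomal Slc29a3 was higher at 28.3 and 24.8 CPM in the C/EBPβ libraries, against 17.5 and 14.6 CPM in the empty-vector libraries (log2 fold change 0.73 ± 0.12, edgeR adjusted p = 0.00243), and Slc29a2, or ENT2, was lower at 6.53 and 7.14 CPM in the C/EBPβ libraries, against 14.3 and 15.4 CPM in the empty-vector libraries (log2 fold change -1.12 ± 0.12, edgeR adjusted p = 0.000354). Slc43a3, a carrier of purine bases, had 46.7 and 28.8 CPM in the C/EBPβ libraries, against 15.5 and 16.1 CPM in the empty-vector libraries (log2 fold change 1.26 ± 0.23, edgeR adjusted p = 0.00917). Its 2 C/EBPβ libraries lay apart, and the call was lost without the first or second empty-vector library (adjusted p of 0.117 and 0.145). Slc35e4, whose substrate is not known, had 49.9 and 53.9 CPM in the C/EBPβ libraries, against 119.8 and 119 CPM in the empty-vector libraries, 2.31-fold lower (log2 fold change -1.21 ± 0.08, edgeR adjusted p = 3.83e-05). The other 18 Slc35 genes, several of which feed nucleotide sugars to the Golgi apparatus, were within 1.5-fold, and Slc35f5, Slc35b2, Slc35b3 and Slc35b4 were higher at 0.30 to 0.40. All 4 calls were lost without the second empty-vector library (adjusted p of 0.0603 to 0.144), and those on Slc35b3 and Slc35b4 also without the first or without the first C/EBPβ library (adjusted p of 0.0712 to 0.206); Slc35b3 lost its call with DESeq2 too (0.0647). The count called higher in this class was 3 without the first and 1 without the second empty-vector library.

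Phosphate and vitamin carriers contributed a few changes. Slc20a2, a sodium and phosphate carrier, had 37.5 and 38.3 CPM in the C/EBPβ libraries, against 73.6 and 62.9 CPM in the empty-vector libraries (log2 fold change -0.85 ± 0.09, edgeR adjusted p = 0.000414), while its paralog Slc20a1 did not pass at 113 and 108 CPM in the C/EBPβ libraries, against 107 and 106 CPM in the empty-vector libraries. Slc37a2, an exchanger of glucose-6-phosphate for phosphate, was lower at -0.51 ± 0.15 (adjusted p = 0.0276), a call lost without the first C/EBPβ library (0.0522), without the first empty-vector library (0.150) and with the replicate number as a block (0.0567). Slc37a3 did not pass.

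Of 11 carriers of vitamins, choline and acetyl-CoA, 4 were higher and 2 lower, and 1 was higher without the second empty-vector library. With all libraries the called share was 54.5%, beside 43.3% of all genes tested. Slc46a3, a lysosomal relative of the folate carrier, had 8.40 and 6.32 CPM in the C/EBPβ libraries, against 2.18 and 1.42 CPM in the empty-vector libraries (log2 fold change 2.05 ± 0.24, edgeR adjusted p = 0.000592). The folate carriers Slc46a1 and Slc19a1 were higher at 0.56 ± 0.14 and 0.48 ± 0.12, and both calls were lost without the second empty-vector library (adjusted p of 0.107 and 0.0963). The fourth, the acetyl-CoA carrier Slc33a1, was at 0.38 ± 0.09, and its call was lost without the same library (0.0740) or the second C/EBPβ library (0.0541). Slc44a4, a choline-like transporter, had 3.96 and 7.38 CPM in the C/EBPβ libraries, against 30.1 and 27.1 CPM in the empty-vector libraries (log2 fold change -2.35 ± 0.28, edgeR adjusted p = 0.00225), 5.04-fold lower, while Slc44a2 and Slc44a1 did not pass. Slc5a6, which brings in biotin and pantothenate, had 11.5 and 12.8 CPM in the C/EBPβ libraries, against 28.8 and 27.5 CPM in the empty-vector libraries (log2 fold change -1.21 ± 0.10, edgeR adjusted p = 0.000106), with 13.6% of its windows shared with other genes.

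The carriers of organic ions, lipids and hormones included a large fall and a large rise. Slc5a5, the sodium and iodide symporter of the thyroid, had 0.230 and 0.219 CPM in the C/EBPβ libraries, against 2.00 and 1.86 CPM in the empty-vector libraries (log2 fold change -3.08 ± 0.28, edgeR adjusted p = 0.000171). Slc10a6, a carrier of sulfated steroids, had 1.74 and 1.97 CPM in the C/EBPβ libraries, against 0.157 and 0.178 CPM in the empty-vector libraries (log2 fold change 3.43 ± 0.31, edgeR adjusted p = 0.000144). Both were among the 9 members under 1 CPM in a group, and the groups lay far apart in each.

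In the same class of 19, 7 were higher and 5 lower (63.2% called, beside 43.3% of all genes tested). The neighbours Slc22a5, Slc22a21 and Slc22a4 on chromosome 11 were all higher, at 0.44 ± 0.13, 0.81 ± 0.17 and 0.79 ± 0.17. The first and second of them carry carnitine, and they share 26.3% and 22.0% of their 50-base windows with other transcripts, so their counts are uncertain. The call on Slc22a5 was lost without the first C/EBPβ library or either empty-vector library (adjusted p of 0.104 to 0.184), that on Slc22a21 without the second empty-vector library (0.0614) and that on Slc22a4 without the first (0.0613). Slc27a1, the fatty acid transport protein of muscle and fat, had 152 and 119 CPM in the C/EBPβ libraries, against 99.6 and 74.9 CPM in the empty-vector libraries (log2 fold change 0.64 ± 0.17, edgeR adjusted p = 0.0283), a call lost without the second empty-vector library (0.0997). Slc22a23, whose substrate is not known, was lower with 7.22 and 9.33 CPM in the C/EBPβ libraries, against 18.8 and 18.5 CPM in the empty-vector libraries (log2 fold change -1.18 ± 0.14, edgeR adjusted p = 0.000544). Slc6a8, the creatine transporter, did not pass at 135 and 124 CPM in the C/EBPβ libraries, against 156 and 119 CPM in the empty-vector libraries. The class count called higher was 3 without the second empty-vector library.

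**Figure D5:**
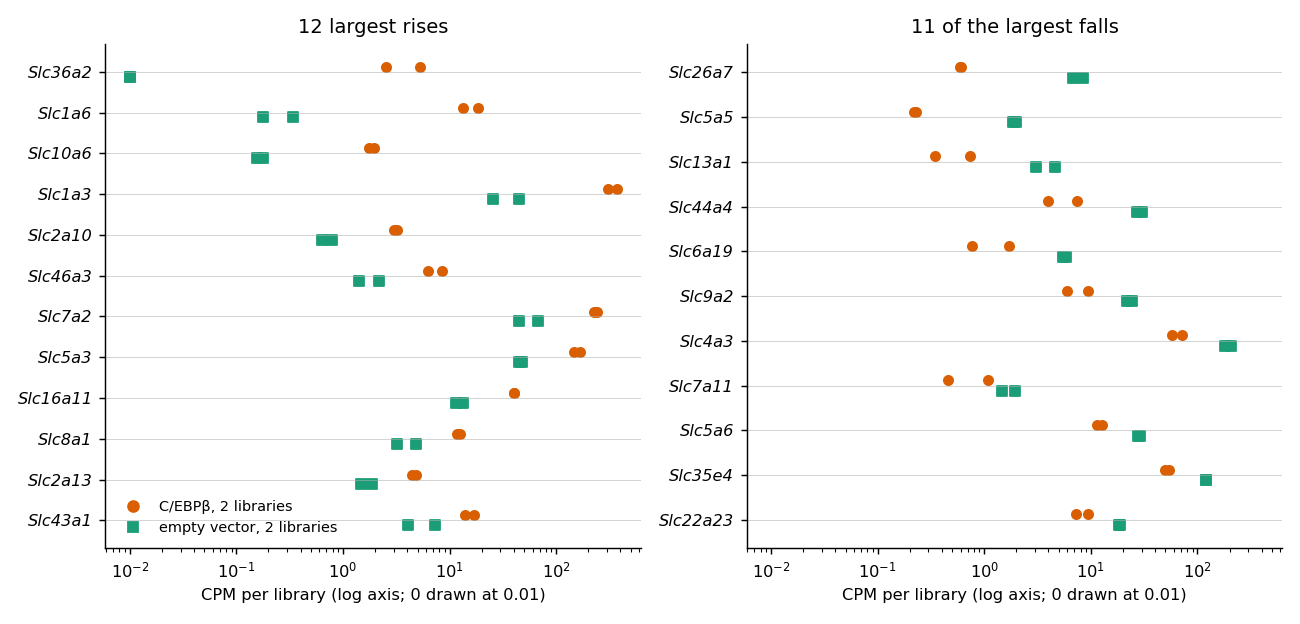
Level in each library (CPM, log axis) of the 12 solute carriers with the largest rises (left) and of 11 of the 12 with the largest falls (right) among members that passed the edgeR test. Circles are the 2 C/EBPβ libraries and squares the 2 empty-vector libraries, and values of 0 are drawn at 0.01. The genes were chosen among those whose groups did not overlap, and among those shown the groups come closest in Slc7a11.

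The symbols of 4 members are those of proteins that are not carriers. Of these Slc9a3r2, or NHERF2, a scaffold that holds sodium and proton exchangers at the membrane, had 12.2 and 11.5 CPM in the C/EBPβ libraries, against 24.1 and 23.0 CPM in the empty-vector libraries (log2 fold change -0.99 ± 0.10, edgeR adjusted p = 0.000255), while its relative Slc9a3r1, Slc7a6os and Slc4a1ap did not pass. Transporters of like function under other symbols were also mixed. Of 20 tested, 6 were higher and 7 lower, beside 22.4% and 20.9% of all genes tested, with a median log2 fold change of -0.03. Among them Sfxn1, a mitochondrial serine carrier, had 36.6 and 32.3 CPM in the C/EBPβ libraries, against 18.9 and 20.7 CPM in the empty-vector libraries (log2 fold change 0.80 ± 0.10, edgeR adjusted p = 0.000751), and the pyruvate carrier subunits Mpc1 and Mpc2 did not pass.

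Members that lie next to each other did not always share a direction. Within 100 kb of each other 12 pairs of consecutive members were found (GRCm38). The pairs in which both were higher were Slc22a5 with Slc22a21, Slc22a21 with Slc22a4, Slc36a2 with Slc36a1 and Slc43a1 with Slc43a3, and that in which both were lower was Slc6a19 with Slc12a7. Slc16a11 and Slc16a13 were called in opposite directions. In the remaining 6 pairs 1 or both members did not pass.

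In the authors' deposited table, 50 of the 195 members were higher and 44 lower at an adjusted p under 0.05. By the authors' deposited table and the test here 88 members were called in the same direction and none in opposite directions, and 183 had the same sign. Of the members called here, 5 higher and 1 lower were not called there, and 6 not called here were lower there. The 1 lower was Slc6a19, at a log2 fold change of -1.63 there, and Slc25a3 was among the 6, at -0.30. The authors' deposited table gives log2 fold changes of 5.52 for Slc1a6 and 6.03 for Slc36a2.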

How the data were processed

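Stranded mRNA libraries of 4 C2C12 samples were analysed, 2 with C/EBPβ and 2 with the empty vector, grouped by their titles. The values deposited by the authors for each library are raw counts of fragments. The submitters' processing notes name HISAT2 2.0.4, featureCounts 1.4.6 and the build GRCm38. Per the file headers, featureCounts 1.5.1 counted read pairs on the reverse strand over GENCODE M12, without an option to keep multi-mapped fragments. A second deposited table lists, by its header, the authors' mean signal, log2 fold change, test score, p-value and adjusted p-value of each gene; DESeq2 is named in the notes without a version. Its mean is not that of these 4 libraries. A few genes are not reported here by name, but enter the counts and medians.

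From the counts, genes were kept by filterByExpr (minimum count 10, total 15), scaled by TMM and tested with edgeR 4.0.16 in R 4.3.3 (glmQLFit, robust, current dispersion estimation; glmQLFTest, 2-sided, Benjamini-Hochberg, threshold 0.05). SE was taken from the F statistic. CPM uses TMM-scaled library sizes except in the rule for members, and TPM divides by the gene lengths in the files. The common coefficient of biological variation came to 9.42%. Replicates differed beyond sampling noise (chi-square per degree of freedom 28.7 for C/EBPβ and 20.2 for empty vector). With 2 libraries per group the smallest exact 2-sided permutation p is 0.333, so no such test was used. Equal replicate numbers are not said to share a culture or day, so libraries were not paired. Sharing of 50-base windows was measured against GENCODE M21 transcripts; 11 members exceeded 10%. The floor for a gene with no fragment in a group covers counting error only. The procedure was tested on simulated data.

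The members, substrate classes and other lists were chosen with earlier results of these data known. Genes were named by rule: the 12 largest rises and falls past the threshold without overlap, the 3 smallest p-values in each class of 4 or more, the 10 highest TPM, the genes nearest the 1 CPM threshold and every member under 1 CPM in a group, with others named to complete a count, family or pair after their values were seen. The current dispersion estimation of edgeR was also chosen after seeing the data: several settings were tried, and the one whose counts of called genes equalled those of earlier processing of the series was kept. The alternatives were other scalings, filters and tests, leaving out each library, a replicate block and the earlier estimation.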

Additional observations from a re-analysis of the deposited data

How the results depend on the processing

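None of the named solute carriers changed sign under the 13 alternatives where it passed the test, and 59 of the 94 called members (33 higher and 26 lower) were called under all of them. Of the counts over all members and all genes, those that moved by over 1.5 times did so without the second empty-vector library, where 35 members were higher (55 with all libraries) and 2158 genes were higher and 1855 lower (3558 and 3315). Counts within substrate classes, which are small, moved by over 1.5 times in 20 cases, of which 5 and 7 were without the first and second empty-vector library, 3 and 2 without the first and second C/EBPβ library, 2 with the replicate block and 1 with library sizes alone. Leaving out each library in turn gave 35 to 59 members higher, 27 to 46 lower, 2158 to 3795 genes higher and 1855 to 3746 lower; with 1 library left in a group, it was assumed to vary like the other group. DESeq2 called 50 members higher and 38 lower. The earlier dispersion estimation, added after seeing the data, called 55 and 39, the same numbers as the current one; 1 member was lost and 1 gained. The replicate block gave 58 and 40 members and 3944 and 3656 genes; the correlation of same-numbered deviations was 0.211 over 12555 genes with 2 pairs, so the pairing is not established. Members near 1 CPM rest on the fewest fragments; Slc5a5 and Slc10a6 kept their calls under all alternatives and Slc7a11 lost its call under 4.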
